A study of Caenorhabditis elegans with 2 samples.

Results

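The intergenic peaks of PES-1 away from tRNA and snoRNA genes were 238 of the 1452 nuclear peaks in the conservative list (16.4%, 95% Wilson interval 14.6 to 18.4%). In that list the replicates were compared with each other. A peak was a member when its summit lay outside every protein-coding gene body, outside every window from 1000 bp upstream to 200 bp downstream of a protein-coding transcript 5′ end, and more than 200 bp from any tRNA or snoRNA gene. Of the other conservative peaks, 570 were in promoter windows, 333 lay within 200 bp of a tRNA or snoRNA gene, 262 were intronic and 49 were exonic. The members are numbered here from 1 to 238 by falling signal, the value that the authors' peak caller gave each peak.

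The chromatin came from whole early embryos of Caenorhabditis elegans strain RW12239, aged 1 hour and synchronised by egg bleaching, in which TY1, EGFP and 3xFLAG tags had been inserted by CRISPR into pes-1 at its own locus on chromosome IV. Chromatin was sonicated to a size range of 200 to 800 and precipitated with an antibody against the fluorescent protein, although the antibody field names pes-1. There are 2 biological replicates of 1 group, set against a shared control, and no untagged or mutant strain was analysed here. Whole embryos hold many cell types, so a strong peak in few cells and a weak one in many cannot be told apart, and with 1 group no condition could be compared.

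PES-1 is a forkhead transcription factor expressed in early embryonic lineages, and forkhead proteins bind DNA through a winged-helix domain. Sequence between genes can hold enhancers, genes for RNAs that are not translated, and repeats. RNA polymerase III genes such as tRNA genes carry promoter elements inside the transcribed sequence, named the A box and the B box. Heat shock elements, which heat shock factor HSF-1 binds, are inverted units of the half-site GAA with its complement TTC, and the telomeres of this worm are built of TTAGGC repeats.

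Of the 20 members with the highest signal, 14 held 1 of 4 sequence families, and over all members 50 of 238 did (21.0%, 16.3 to 26.6%). The families were defined after the sequences had been seen, so their counts are descriptions without a test. The first, the half-site array, holds at least 2 runs of 3 alternating half-sites, TTC and GAA, with 2 bases between neighbours (TTCNNGAA extended by another half-site), whose starts lie at least 8 bp apart. The second holds the A box letters TGGCNNAGT. The third holds at least 2 copies of AGAGAGTAA, and the fourth at least 3 copies of TTAGGC. All were searched on both strands, in windows reaching 50 bp to each side of the summit. Because the strongest peaks carry them, the sequences of the strongest members of each family, of another kind of A box member and of peak 1 follow, read from RefSeq's WBcel235 (ce11).

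The half-site arrays are shown first, with each run of 3 half-sites in capitals.
Peak 5, chrIV:15896020-15896120, forward strand: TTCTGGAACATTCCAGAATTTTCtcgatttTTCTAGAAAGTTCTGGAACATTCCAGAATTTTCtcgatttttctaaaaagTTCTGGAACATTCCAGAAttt
Peak 7, chrX:1375176-1375276, forward strand: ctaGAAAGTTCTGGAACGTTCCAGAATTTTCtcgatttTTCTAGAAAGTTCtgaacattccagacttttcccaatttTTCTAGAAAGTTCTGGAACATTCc
Peak 8, chrIV:16458516-16458616, forward strand: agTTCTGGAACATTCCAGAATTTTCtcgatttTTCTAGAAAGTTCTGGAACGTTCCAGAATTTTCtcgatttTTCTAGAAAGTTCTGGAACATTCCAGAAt
In peak 8 the half-sites succeed each other almost without a break, and the 51 bp at its centre occurred 3 times in the nuclear genome.

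The next 4 carry an A box, with TGGCNNAGT in capitals, and in peak 25 a B box (GTTCNANNC) in capitals as well.
Peak 2, chrIV:2740173-2740273, forward strand: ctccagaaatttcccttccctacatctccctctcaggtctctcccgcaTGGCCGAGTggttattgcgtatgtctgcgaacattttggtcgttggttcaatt
Peak 6, chrX:351560-351660, reverse strand: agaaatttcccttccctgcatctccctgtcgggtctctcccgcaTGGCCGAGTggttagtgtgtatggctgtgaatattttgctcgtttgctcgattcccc
Peak 14, chrIV:16731425-16731525, forward strand: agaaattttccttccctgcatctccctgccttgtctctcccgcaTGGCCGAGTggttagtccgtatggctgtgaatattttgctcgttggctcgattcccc
Peak 25, chrIII:9849284-9849384, forward strand: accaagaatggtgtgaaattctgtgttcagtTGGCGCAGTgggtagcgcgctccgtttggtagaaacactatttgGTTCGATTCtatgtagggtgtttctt
Peaks 2, 6 and 14 have similar letters from the upstream stretch to beyond the A box, while peak 25 is of another kind around the same box.

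The third family is built of a 25-bp unit, and all 18 spacings between neighbouring AGAGAGTAA copies in its members were 25 bp. The copies are in capitals.
Peak 9, chrIII:2499424-2499524, forward strand: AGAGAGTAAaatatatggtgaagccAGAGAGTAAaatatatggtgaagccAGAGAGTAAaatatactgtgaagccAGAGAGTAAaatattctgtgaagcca
Peak 11, chrIII:3335091-3335191, reverse strand: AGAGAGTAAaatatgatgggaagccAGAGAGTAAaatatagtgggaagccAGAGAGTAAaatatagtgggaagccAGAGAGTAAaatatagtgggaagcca

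The last family holds TTAGGC, in capitals.
Peak 125, chrV:1480413-1480513, reverse strand: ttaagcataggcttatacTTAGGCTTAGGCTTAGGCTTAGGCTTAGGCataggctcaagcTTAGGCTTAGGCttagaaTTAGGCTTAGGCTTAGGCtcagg
Peak 156, chrII:573661-573761, forward strand: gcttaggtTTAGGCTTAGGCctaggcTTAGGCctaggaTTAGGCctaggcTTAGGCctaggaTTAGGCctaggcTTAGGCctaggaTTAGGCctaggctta

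Peak 1 belonged to none of the families. A B box match to GTTCGANNC on the reverse strand is in capitals.
Peak 1, chrIV:11026150-11026250, reverse strand: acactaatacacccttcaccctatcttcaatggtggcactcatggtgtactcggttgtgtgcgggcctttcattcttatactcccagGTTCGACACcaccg

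Half-site arrays were the most frequent of the 4 families in the conservative list, but not in every list. They were at 12 members and the A box at 16 in replicate 2's own list, at 18 and 19 in that of replicate 1, and at 6 and 12 at an IDR of 0.001, while the ranked list at an IDR of 0.01 had 26 half-site and 41 AGAGAGTAA arrays. In the conservative list they were held by 22 of 238 members (9.24%, 6.18 to 13.6%), by 6 windows centred 500 bp below the summits and 3 centred 500 bp above, and by 0.284% of 247479 tiles of the same length centred on eligible bases, the bases where a summit would have met the rule. Among intronic peaks 5 of 262 held one (1.91%) and among promoter peaks 3 of 570 (0.526%). The 22 members held 3 to 9 such runs, with a median of 7. The strongest, peak 5 (chrIV:15895957-15896164), lay 1837 bp from srv-14, a chemoreceptor family gene, with a signal of 336 in replicate 1, 289 in replicate 2 and 620.4 in the pooled list. Peak 7 (chrX:1375103-1375407), 513 bp from fbxa-190, had 282 and 331 in the replicates. Peak 8 (chrIV:16458469-16458668), 11825 bp from dlc-4, had 317 and 234. In each of these the replicates were both above the upper quartiles of all members, 84.9 in replicate 1 and 99.5 in replicate 2. Peak 10 (chrX:2057894-2058104) had 199 and 237, and peak 15 (chrIV:15059288-15059416), 672 bp from Y41E3.13, had 190.1 and 207. Family members ranged widely below these, with pooled signals from 2.32 to 620.4 and a median of 148, and 8 of the 22 had a summit within 200 bp in the thresholded list of each replicate. The arrays were AT-rich, with 33.8% ± 2.49 GC (SD, n = 22) at the summit, and all 22 summits were soft-masked as repeats in the reference.

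Most half-site arrays of the genome had no member. Joining runs within 200 bp of each other gave 316 eligible loci with at least 2 runs, of which 20 had a member within 200 bp (6.33%, 4.13 to 9.57%). The share was higher in longer arrays, with 0 of 157 loci of 2 to 5 runs, 1 of 66 of 6 to 10, and 19 of 93 with 11 or more (20.4%, 13.5 to 29.7%). Of these longest arrays, 65 had any summit of the ranked list, which holds peaks of every IDR. IDR, the irreproducible discovery rate, estimates how often peaks of that rank fail to recur, and the conservative list holds an IDR of 0.01 or lower. Longer loci also offer more places for a summit, and the part of reads that match several copies was not tested.

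The A box was held by 17 members (7.14%, 4.51 to 11.1%), by 0 lower flanks, by 2 upper flanks and by 0.900% of tiles. In the other classes 12 intronic peaks (4.58%) and 31 promoter peaks (5.44%) held it. TGGCNNAGT was 1 of 18 motifs listed for testing, and it was more frequent at summits than in either flank (exact McNemar tests, Benjamini-Hochberg adjusted p = 0.00014 against the lower and 0.011 against the upper flank). The call was lost with 1 member per sequence group, which leaves 5 members with the box (exact tests, higher adjusted p of the 2 flanks 0.74), and with flanks at 1000 bp (0.16). The box lay close to the summit, at a median of 5 bp and within 20 bp in 15 of 17 members. A B box GTTCNANNC followed 20 to 70 bp further on the same strand in 10 of the 17. Of the 17, 15 had no annotated noncoding gene within 200 bp, and 1 of 17 matched any of 612 nuclear tRNA genes by sequence search (peak 154, 88.7% identity over 53 bp). The 2 with such a gene were peak 40, near the piRNA gene 21ur-6325, and peak 2 (chrIV:2740087-2740353), which covered the tRNA pseudogene Y94H6A.t1, of which RefSeq annotates 209 of the kind in the nuclear genome. It had 319 in replicate 1 and 367 in replicate 2, and its nearest coding gene was the nuclear hormone receptor gene nhr-277, at 2771 bp.

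Peak 6 (chrX:351494-351734) lay in the 6401-bp gap between C04E7.3 and sor-3, with 272 in replicate 1 and 325 in replicate 2. Peak 14 (chrIV:16731358-16731578), between Y51H4A.23 and Y51H4A.25, had 167 and 204. Peak 16 (chrIII:6661782-6661973) lay 9781 bp from pdfr-1, a neuropeptide receptor gene, and 13896 bp from rbf-1, with 154 and 187. Of the 16 strongest members, 4 thus held an A box, and their replicate 2 values were all above their replicate 1 values. In the whole A box family replicate 2 was the higher in 12 of 17, and over all members in 170 of 227. The 17 A box members had a median pooled signal of 240.03, from 89.6 to 668, against a median of 122 in the 188 members outside the families. In 11 of 17 the peak was in the thresholded list of both replicates, as against 53 of 188 outside the families. Their summits had 50.2% ± 5.71 GC (SD, n = 17), against 33.7% in the lower and 31.6% in the upper flank.

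The AGAGAGTAA arrays were few and strong. The 6 members had pooled signals from 99.9 to 457 with a median of 363, and 4 of them were among the 20 strongest. In most of them replicate 1 was the higher. Peak 9 (chrIII:2499388-2499574) had 316 in replicate 1 and 147 in replicate 2, and peak 12 (chrIII:2497917-2498075), in the same 9078-bp gap between Y54F10AL.1 and Y54F10AM.8, had 286 and 132. Peak 20, on chromosome I between unc-87, a calponin-like muscle protein gene, and pqn-21, had 224 and 87.2. Peak 11 (chrIII:3335046-3335219), 1163 bp from Y53G8AR.1, was the exception with 210.2 and 238. Thus 1 of the 6 was higher in replicate 2, while over all members 170 of 227 with a summit in both replicates' ranked lists were. The 6 lay in 3 arrays of 16 or more copies, out of 28 eligible arrays of that size (10.7%, 3.71 to 27.2%), and 26 of the 28 held a ranked summit. No intronic or promoter peak held the array, while 0.264% of tiles did. It was also in 6 lower and 5 upper flanks, so within members it was not particular to the summit window.

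TTAGGC arrays were held by 5 members (2.10%, 0.901 to 4.82%), against 6 of 262 intronic peaks (2.29%), 2 of 570 promoter peaks (0.351%) and 0.232% of tiles. Their pooled signals ran from 6.39 to 124, and none of the 5 was in the thresholded list of both replicates. Peak 125 (chrV:1480298-1480627) lay 887 bp from unc-60, which encodes an actin-severing cofilin, with 51.2 in replicate 1 and 67.3 in replicate 2. Peak 156 (chrII:573546-573875), between mlt-8 and W08F4.7, had 72.5 and 49.9, and peak 163 (chrIV:16172818-16173147), 2305 bp from the glutamine synthetase gene gln-3, had 52.2 and 52.8. In replicate 2 all 3 lay below the median of all members, 72.9, and peaks 156 and 163 below the lower quartile, 61.5. The count of 5 was 2 in either replicate's own list, 0 at an IDR of 0.001 and 1 with promoter windows of 2000 and 500 bp.

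**Figure D1:**
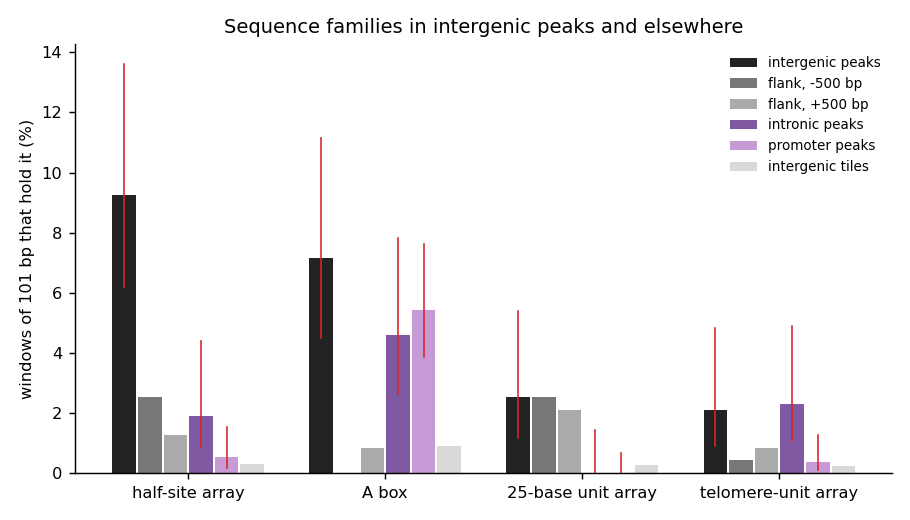
Percent of windows of 50 bp to each side holding each of the 4 sequence families at the intergenic peaks, in their flanks, at intronic and promoter peaks and in intergenic tiles, with 95% Wilson intervals in red for the peak classes. Half-site arrays were at 9.24% of intergenic peaks and 0.284% of tiles, while the A box was at 7.14% of intergenic and 5.44% of promoter peaks.

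**Figure D2:**
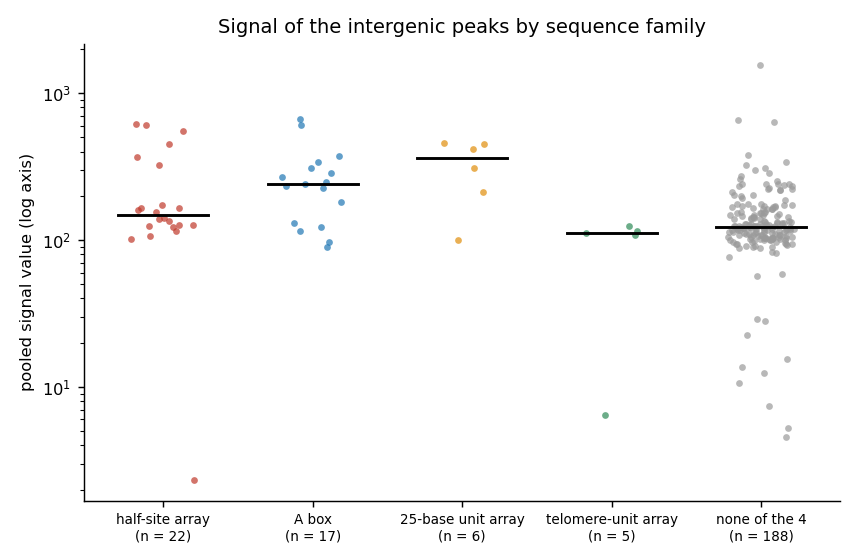
Pooled signal of each intergenic peak on a log axis by family, with the median as a bar. Medians were 148 for half-site arrays, 240.03 for the A box, 363 for the AGAGAGTAA arrays (25-base unit), 112 for the TTAGGC arrays (telomere unit) and 122 outside the families.

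Sequence sharing reached beyond the 4 families. When the sequences within 100 bp of each summit were compared with each other, leaving out pairs within 1000 bp, 103 of 238 members (43.3%) matched at least 1 other member, in 22 groups, of which the largest held 29 members and the next 11. The largest group was that of the half-site arrays and the next that of the A box sequence shown for peaks 2, 6 and 14, which had copies on all 6 chromosomes. The 51 bp around the summit occurred more than once in the genome in 43 members (18.1%), against 23 of 262 intronic peaks (8.78%, two-sided Fisher's exact test with Benjamini-Hochberg adjustment over 8 tests between classes, adjusted p = 0.0037) and 16 of 570 promoter peaks (2.81%, adjusted p = 7e-12). The highest number of copies was 52, at peak 11, then 50 at peak 18. By the same exact test, the difference from intronic peaks did not pass the threshold of 0.05 without the families (odds ratio 1.45, adjusted p = 0.33) or with 1 member of each sequence group (odds ratio 1.10, adjusted p = 0.91), while that from promoter peaks did. Only members were thinned in these 2 settings. The other classes were kept whole, with the 23 of 262 intronic peaks that held a family. These ratios therefore cannot show whether the classes differ outside such sequences. By the reference's soft-masking, 103 member summits (43.3%) lay in repeats, near the 40.3% of eligible bases, against 86 intronic (32.8%) and 120 promoter summits (21.1%). Tests over peaks treat them as independent, so copies count as separate peaks, and they describe this set of peaks and not a difference between samples.

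Noncoding genes other than tRNA and snoRNA genes lay within 200 bp of 63 members (26.5%), near the 24.2% of eligible bases (exact binomial test, adjusted p = 0.55), but the kinds of gene differed. Genes of biotype ncRNA were at 43 members (18.1%, 13.7 to 23.4%) against 4.79% of eligible bases (exact binomial test, adjusted p = 6.6e-13, adjusted over 9 tests, 8 biotypes and their union), a 3.77-fold excess. Those of microRNAs were at 3 (1.26% against 0.205%, exact test, adjusted p = 0.029) and of snRNAs at 2 (0.840% against 0.0804%, adjusted p = 0.029). Pseudogenes were at 14 members (5.88% against 12.8%, exact test, adjusted p = 0.0026) and piRNA genes at 3 (1.26% against 6.20%, adjusted p = 0.0017), both below their share of bases. These calls rest on few members and depended on the list. In replicate 1's own list those of microRNA and snRNA genes were lost (exact tests, adjusted p = 0.092 and 0.18), as in the ranked list at an IDR of 0.01 (0.055 for each). That of microRNA genes was also lost with the summit inside the gene (0.17), and that of snRNA genes at an IDR of 0.001 (0.13), within 500 bp (0.091) and with the wider promoter windows, where 0 members had one. The lower share at pseudogenes did not pass with 1 member per sequence group (ratio 0.649, exact test, adjusted p = 0.14), with the wider promoter windows (0.609, p = 0.097) or at an IDR of 0.001 (0.362, p = 0.13), and that at piRNA genes did not pass at an IDR of 0.001 (0.248, p = 0.28) or with the summit inside the gene (0, p = 0.82). LincRNA genes (3 members), antisense RNA genes (1) and rRNA genes (0) did not pass the test. In replicate 2's own list lincRNA genes did pass, at 3.21 times their share of bases (exact test, adjusted p = 0.031). Between classes, by Fisher's exact test, 84 of 570 promoter peaks (14.7%, adjusted p = 0.00035) and 52 of 262 intronic peaks (19.8%, adjusted p = 0.102) had such a gene within 200 bp.

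The strongest member of all lay beside a microRNA gene. Peak 1 (chrIV:11025826-11026400) had a signal of 691 in replicate 1, 836 in replicate 2 and 1560.1 in the pooled list, more than any other member in each. Its summit was 88 bp upstream of mir-51 and 19 bp inside the 89-bp ncRNA gene F36H1.17, in the gap between alh-3, an aldehyde dehydrogenase family gene, and hrg-5. Peak 3 (chrIV:14033733-14034353) had 303 and 293 in the replicates, with its summit 4 bp inside mir-52, the next of the family, and further ncRNA genes within 200 bp, among them Y37A1B.330. The mir-51 family is abundant in embryos, where it is needed for viability. Peak 219 (chrX:2368805-2369134) lay between mir-73 and mir-74 and was far weaker, with 51.9 and 60.8.

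Other noncoding genes at members included those of the signal recognition particle and of a spliced leader RNA. Peak 17 (chrIII:5211132-5211364) lay 39 bp inside srpr-2.1, an RNA of the signal recognition particle, with 109 in replicate 1 and 191 in replicate 2, and peak 67 lay 242 bp inside the same gene with 61.1 and 87.8. Peak 60, with 133 and 66.3, lay 240 bp inside srpr-1.1, a gene of the same kind. Peak 29 (chrII:5543503-5543744) lay 30 bp inside sls-2.2, a spliced leader RNA gene annotated as an snRNA gene, with 102 in replicate 1 and 154 in replicate 2. The other snRNA gene was T27E4.11, at peak 118 with 56.7 and 63.9. Peak 15, a half-site array, lay near the ncRNA gene Y41E3.460, and peak 19 (chrX:3914377-3914614) inside T22B2.12 and T22B2.9 with 153.3 and 153.4. The 43 members and the ncRNA genes near them made 57 pairs, in which a gene counts again at each member. In 36 pairs the gene was shorter than 200 bp, and in 38 it contained the summit. Of the 7764 ncRNA genes in the annotation, each counted 1 time, 6315 were shorter than 200 bp. Members at ncRNA genes were not stronger as a set, with a median pooled signal of 123 against 125 in the 175 members with no annotated gene within 200 bp.

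At the remaining kinds signals were 242 at most, apart from peak 2 at the tRNA pseudogene Y94H6A.t1 (668), which counts among the pseudogenes. LincRNA genes were linc-128 at peak 48 (signal 202), linc-91 at peak 61 (171) and linc-109 at peak 198 (100.4), the antisense gene was anr-58 at peak 200 (99.96), and the piRNA genes were 21ur-6325 at peak 40 (227), 21ur-6997 at peak 163 (112) and 21ur-6203 at peak 213 (93.7). After peak 2, the pseudogenes with the strongest members were T26C11.3 at peak 31 (242), K08F11.6 at peak 43 (222), F39E9.28 at peak 80 (152) and Y82E9BR.2 at peak 92 (141). C30E1.9, a 14770-bp ncRNA gene on chromosome X, held 4 members along its length, peaks 41, 50, 77 and 98.

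Members were placed unevenly in the gaps between coding genes. In gaps between 2 convergent genes, where both neighbours end, lay 64 members (26.9%, 21.7 to 32.9%) against 16.4% of eligible bases (exact binomial test, adjusted over 4, p = 0.00019). Gaps between divergent genes, where both neighbours start, held 53 (22.3% against 29.9%, exact test, adjusted p = 0.021), and tandem gaps 120 (50.4% against 53.4%, adjusted p = 0.36). Within 500 bp beyond a coding 3′ end lay 46 members (19.3% against 13.9%, exact test, adjusted p = 0.026). In replicate 2's own list none of these passed the threshold, with a 1.34-fold share in convergent gaps (exact test, adjusted p = 0.24) against 1.64-fold in the conservative list. At an IDR of 0.001, and in the ranked list at an IDR of 0.01, neither the lower share in divergent gaps nor the higher share beyond 3′ ends passed. Among the members outside the families, 56 of 188 were in convergent gaps, and among the 17 with an A box 1 was, with 9 in divergent gaps. The median distance to the nearest coding gene was 1600.5 bp and to the nearest coding 5′ end 2729 bp, and the median gap was 6247 bp, against 7555 bp as the median over eligible bases.

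By chromosome, III held 42 members (17.6% against 11.1% of eligible bases, exact binomial test, adjusted over 6, p = 0.016), and V held 35 (14.7% against 20.7%, adjusted p = 0.074). The lower share on V did pass with promoter windows of 2000 and 500 bp (ratio 0.532, exact test, adjusted p = 0.0088). The other 4 held between 31 and 48 with adjusted p from 0.53 to 0.94. The 1.58-fold excess on III was of similar size but did not pass the threshold with 1 member per sequence group (1.49), without the families (1.48) or with promoter windows of 2000 and 500 bp (1.51), each with fewer members. It was smaller, and did not pass, in replicate 2's own list (1.12), in the optimal list (1.22) and at an IDR of 0.001 (1.24). The middle 50% of each chromosome's length held, in all, 86 members (36.1% against 45.9% of eligible bases, exact binomial p = 0.0027), and this too did not pass without the families (p = 0.079) or with 1 member per group (p = 0.15). Most of the half-site arrays among members were on IV (10 of 22), X (5) and V (4), the chromosomes with the largest shares of eligible bases. Whether these counts differ from the spread of all eligible half-site arrays over the chromosomes was not tested.

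**Figure D3:**
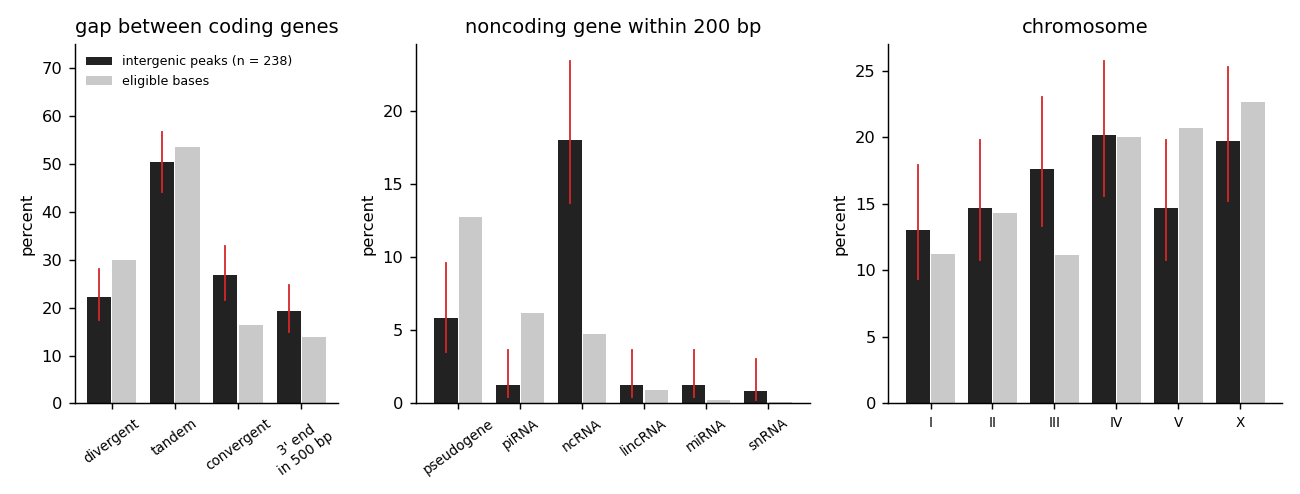
Percent of the 238 intergenic peaks (black, with 95% Wilson intervals in red) and percent of eligible bases (grey) by kind of gap, by noncoding gene within 200 bp and by chromosome. Convergent gaps held 26.9% of peaks on 16.4% of bases, and ncRNA genes were at 18.1% of peaks on 4.79% of bases.

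The mean base composition of members changed sharply at the summits, though not in every family. The window of 50 bp to each side of the summit had 46.8% ± 10.1 GC (SD, n = 238), against 35.4% ± 8.30 in the lower and 35.1% ± 8.21 in the upper flank, and 196 of 238 members had more GC at the summit than in the mean of their flanks. Members outside the families had 48.3% at the summit and 35.8% in the lower flank. The half-site arrays had 33.8% at the summit, against 32.4% in the lower and 38.5% in the upper flank. The AGAGAGTAA arrays had 36.8% against 34.3% and 35.6%. The A box members had 50.2% against 33.7% and 31.6%, and the TTAGGC arrays 47.7% against 41.6% and 37.2%. Intronic peaks had 48.3% ± 9.71 (n = 262) and promoter peaks 49.4% ± 7.84 (n = 570) at the summit.

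**Figure D4:**
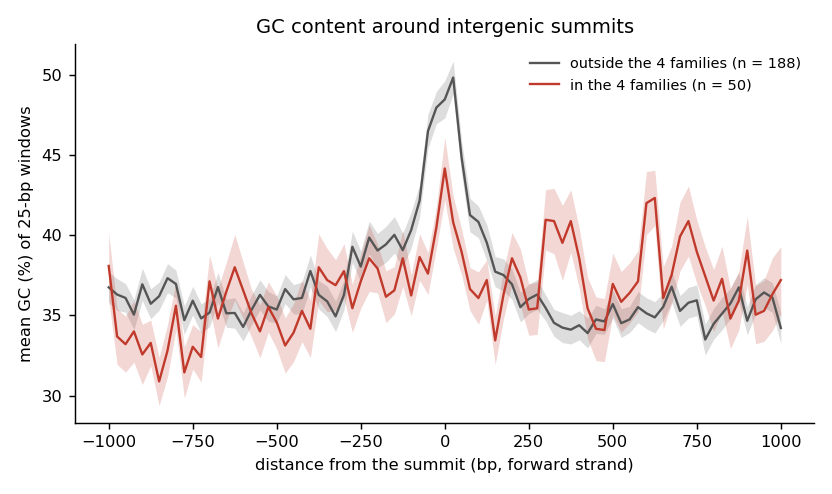
Mean GC content of 25-bp windows by distance from the summit, with a band of 1 standard error, for the 188 intergenic peaks outside the 4 families and the 50 inside. Outside the families GC was 48.5% at the summit and 35.4% at 500 bp below it.

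Forkhead letters were no more frequent at summits than beside them. GTAAACA, the core that many forkhead proteins bind, was at 1 summit against 6 lower and 4 upper flanks (exact McNemar tests, adjusted p = 0.25 and 0.61), and the looser RYAAAYA was at 19 (7.98%) against 42 and 31 (adjusted p = 0.011 and 0.19) and at 18.7% of tiles. A motif was called only where both flanks passed an adjusted p of 0.05. Of the 18 motifs, 2 were called more frequent at summits (11.1%), TGGCNNAGT and GAGAGA, and 3 fewer (16.7%). GAGAGA, which GAGA-type factors bind in flies, was at 37 summits (15.5%) against 11 lower and 15 upper flanks (exact tests, adjusted p = 0.00094 and 0.011) and 5.33% of tiles. GAGAGA was among words listed because they recur in worm promoters or in an earlier account of these peaks. Its test may therefore not be independent of these data. Of those 37 members, 6 held an A box and 31 belonged to no family, and the strongest of them were peaks 2, 6, 14 and 16. The 3 fewer were AT-rich: HGATAR, the GATA factor motif, at 26 (against 49 and 49), TATAAA at 15 (35 and 32) and TTTTTT, the terminator of RNA polymerase III when on the coding strand, at 63 (110 and 93). Summits and flanks differed in GC content, and its part in these counts was not tested. None of the 5 was called with 1 member per sequence group or without the families, which leave fewer members. The ratio of GAGAGA at summits to the mean of the flanks was then 2.80 and 2.58, against 2.85 (exact tests, adjusted p = 0.082 and 0.14), while the loss of TGGCNNAGT without the families follows from their definition. GAGAGA was also not called in replicate 2's own list (ratio 2.82, exact test, adjusted p = 0.088), in that of replicate 1 (1.68, p = 0.62), at an IDR of 0.001 (2.00, p = 1) or in windows of 25 bp (3.00, p = 0.12).

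Of 480 words of 7 bp, 23 were called more frequent at summits (4.79%) and 22 fewer (4.58%). CTCGGCC was at 18 summits, 1 lower flank and 0 upper flanks, GTGGTTA at 14, 0 and 0, and TCTAGAA at 23, 8 and 8. Of the 18 members with CTCGGCC, 12 held an A box, since its reverse complement overlaps the box's letters, and all but 2 of the 23 with TCTAGAA were half-site arrays. In 20 of the 23 words 50% or more of the holders shared sequence with another member, against 43.3% of all members. The exceptions were GCGCCGC, with 23.1% of holders sharing sequence, then AGCGCGC with 16.7%, and last CGCGCAC with 7.69%. Without the families, which left 188 members, 0 words and 0 motifs were called in either direction. For words held only by family members the loss follows from the filter, as for CCAGAAC at 18 and CATTCCA at 21 half-site arrays. In the conservative list no motif passed between members and either other class (Fisher's exact test, lowest adjusted p = 0.89 against intronic and 0.19 against promoter peaks). At an unadjusted p of 0.05 the counts were 0 and 2, the latter RYAAAYA and CTTGCGC, which members held less often than promoter peaks. Against promoter peaks 3 motifs passed in the optimal list, 2 in the ranked list at an IDR of 0.01 and 2 in replicate 2's own list. Against intronic peaks 0 passed in these lists.

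The signal of members spread over a wide range, from 2.32 to 1560.1 in the pooled list with a median of 125 (quartiles 106 and 171). The median was 59.6 in replicate 1 and 72.9 in replicate 2. The 227 members with a summit within 200 bp in each replicate's ranked list had Spearman's rho = 0.511 between the replicates, a description across peaks that had been selected for reproducibility. The median log2 ratio of replicate 2 to replicate 1 was 0.28 (SD over peaks 0.47). In the thresholded list of each replicate were 77 members (32.4%), in that of replicate 1 alone 39, of replicate 2 alone 41 and in neither 81. Of the 50 strongest, 47 were in both lists, and of the 50 weakest, 2. Of 13 members whose pooled signal was below both replicates' values, 56.8 at most, 12 lay within 210 bp of a stronger member, so that the replicate summit next to them can be that of their neighbour, as for peak 238 beside peak 66. In the conservative list promoter peaks were stronger. Above the common median were 312 of 570 promoter peaks and 92 of 238 members (54.7% and 38.7%, Fisher's exact test, adjusted p = 0.00016). More promoter peaks were also in both replicates' lists (44.04% and 32.4%, Fisher's exact test, adjusted p = 0.0037). Against intronic peaks the differences did not pass the exact test's threshold: 55.04% of members and 45.4% of intronic peaks lay above the common median (adjusted p = 0.052, odds ratio 1.47), and 32.4% and 25.6% were in both lists (adjusted p = 0.113). All classes had been selected by IDR, which rests on the ranks of the peaks, so these comparisons describe the listed peaks only. They also depend on the list. With every ranked peak at an IDR of 0.01 or lower, the odds ratio for signal was 1.06 against promoter peaks, without passing the threshold. Against intronic peaks it was 2.30, past the threshold.

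**Figure D5:**
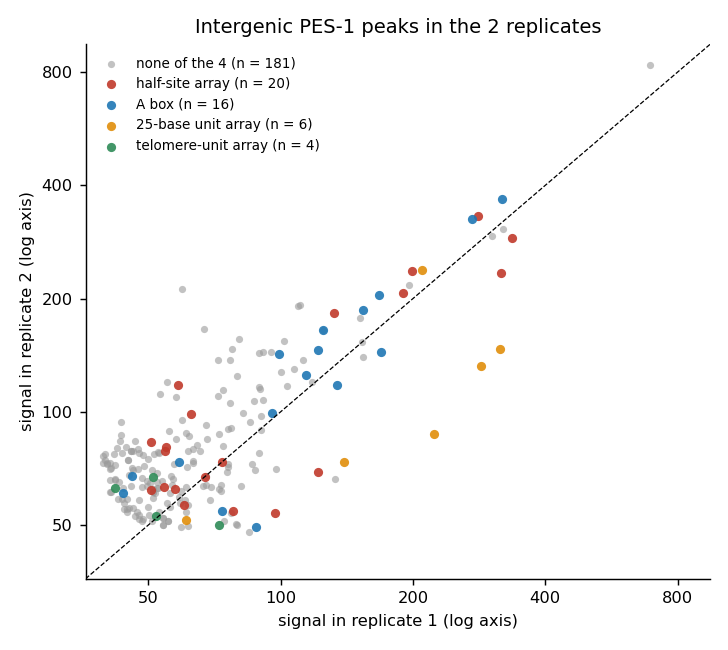
Signal of each intergenic peak in replicate 1 and in replicate 2 at the nearest ranked summit within 200 bp, on log axes with the line of equal values, coloured by sequence family. The AGAGAGTAA arrays (25-base unit) sit below the line in 5 of 6 cases, while 170 of all 227 peaks are above it.

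The conservative list takes 1.94% of the 74874 nuclear peaks in the ranked list, 1.36% of those that meet the intergenic rule, 0.913% of intronic and 3.09% of promoter ones. The member with the highest IDR, peak 198, had a −log10 IDR of 2.00 and a signal of 100.4, and the intergenic peak just beyond the threshold 1.99 and 21.6. At an IDR of 0.001 or lower were 65 members.

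Coding genes next to members were listed by symbol. No member lay in a gap beside any of 15 forkhead genes, 63 ceh homeobox, 19 tbx T-box, 6 elt GATA or 72 his histone genes, whose gaps hold between 0.158% and 0.948% of eligible bases. Genes of the nuclear hormone receptor family nhr flanked 7 members (2.94% against 3.48% of bases), among them peak 2, peak 66 beside nhr-291 (signal 166), peak 171 beside nhr-88 (108) and peak 209 beside nhr-182 (95.4). Chemoreceptor genes flanked 10 members (4.20%, 2.30 to 7.56%, against 7.66% of bases), with peak 5 beside srv-14, peak 21 beside srsx-8 (310.1), peak 23 beside srd-23 (297) and peak 64 beside srx-117 (167). The collagen genes col-137, col-83 and col-88 flanked peaks 119, 127 and 179 (125, 124 and 105), which are 1.26% of members against 1.07% of bases. Of the hlh genes, hlh-29 flanked 1 peak (132), or 0.420% against 0.586% of bases. The ribosomal protein gene rpl-21 flanked peak 159 (113), or 0.420% against 0.359% of bases. The heat shock genes hsp-16.1 and hsp-16.48, small chaperones, flanked peaks 118 and 147 (signals 125 and 117), and neither held a half-site array. These 2 members were 0.840% (0.231 to 3.01%) against 0.245% of bases. Peak 4 (chrIV:8375447-8375758), 232 bp from aagr-1 and 119 bp from D2096.7, held no family and no annotated noncoding gene, with 321 in replicate 1 and 306 in replicate 2. It matched a tRNA gene at 86.7% identity over 30 bp. Peak 13, on chromosome I and 1542 bp from duo-3, had 196 and 217, the strongest of the members with neither a family nor such a match nor an annotated gene nearby. The member farthest from any coding gene was peak 206, near the left end of chromosome X, 37044 bp from Y73B3A.1 and inside the pseudogene CE7X_3.1, with 44.04 in replicate 1 and 57.2 in replicate 2. No annotated gene of any kind lay within 2000 bp of 38 members, of which the strongest were peaks 9, 12, 16 and 21, all in a sequence family.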

How the data were processed

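Peaks of chromatin immunoprecipitation followed by sequencing from 2 biological replicates were analysed on the ce11 assembly, per the file lists deposited with the samples. No source used here names the aligner, the peak caller or the read depth (not given in the sources used here), and alignments and signal tracks were not analysed. The deposited score is the IDR as rescaled by the authors, the deposited signal is the authors' peak caller's value per peak with no scaling between replicates stated, and the deposited ranked lists give the −log10 of the IDR. Summits were computed as start plus offset, and each replicate's value was taken from its ranked list, at the summit nearest to the peak and at most 200 bp away. Genes came from Ensembl release 115, names of noncoding genes also from RefSeq (WormBase release 298), and the genome from RefSeq.

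Shares were compared with shares of eligible bases by two-sided exact binomial tests, summits with both flanks by exact McNemar tests and peak classes by Fisher's exact test (SciPy 1.17.1), with Benjamini-Hochberg adjustment and a threshold of 0.05. The search for motifs and 7-bp words used either strand, 50 bp to each side of the summit, and equal windows 500 bp away, words where at least 10 windows held them. Shared sequence was found with blastn 2.17.0 at an E value of 1e-06, matches to tRNA genes at 0.001. The procedures were tested on simulated data. Intervals cover the counting of peaks only. Tests over peaks describe this set, and with 2 replicates of 1 group no test over samples was possible. Named peaks are the 20 strongest, all members at noncoding genes of biotypes with 10 or fewer members and up to 4 strongest of other biotypes, up to 4 strongest per called motif, per flanking gene list and with no gene within 2000 bp, and the member farthest from a coding gene. For this naming the tRNA pseudogene at peak 2 was counted apart from other pseudogenes. Others (peaks at srpr genes, C30E1.9, family examples, peaks 154 and 238) were named after their values were seen. Members, lists and tests were chosen with earlier results of these data known, and the 4 families after the sequences had been seen.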

Additional observations from a re-analysis of the deposited data

Results flagged for a closer look

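The conservative list leaves out peaks that pass its own threshold. The ranked list behind it holds 1553 nuclear peaks at an IDR of 0.01 or lower, of which 1452 are in the conservative list, and 88 of the remainder meet the intergenic rule used here. These 88 are data outside the members, and their signals are high, from 20.9 to 6830 in the pooled list (6829.86 before rounding) with a median of 346, against 125 for members. The strongest, on chromosome X with its summit at 15811109, had 3763 in replicate 1 and 3290.3 in replicate 2, and 5 of the 88 exceed the strongest member. Soft-masked repeats held 81 of the 88 summits, the central 51 bp occurred more than once in the genome in 47, and 35 (39.8%, 30.2 to 50.2%) held the AGAGAGTAA array, against 6 of 238 members. Of the 28 eligible AGAGAGTAA arrays with 16 or more copies, 16 had such a left-out peak and 3 had a member. Half-site arrays were at 4 of the 88, and the A box and TTAGGC arrays at 0. The thresholded lists name a further parent file whose content is not stated, and whether it removed these peaks was not tested.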

How the results depend on the processing

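Over 20 alternatives 530 values were recomputed, of which 366 kept their direction and side of the threshold (counts within 1.5 times). The excess of ncRNA genes, repeated sequence and noncoding genes against promoter peaks, and the higher GC at summits, did so wherever they were recomputed. Values below are odds ratios between classes, ratios to the share of bases, or counts, and the cause of each change was not tested.

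With either replicate's own list alone, the lowest and highest values were 155 and 168 members, shares of 14.4 and 15.2%, signal against intronic peaks 1.21 and 1.81, antisense genes 0 and 8.20, any noncoding gene 0.958 and 1.06, chromosome I 0.977 and 1.38, II 0.722 and 0.958, X 0.868 and 1.11, chromosomes past the threshold 0 and 1, divergent gaps 0.584 and 0.877, convergent gaps 1.34 and 1.92, 3′ ends 1.28 and 1.57, words 12 and 30 more and 14 and 20 fewer, motifs 1 more and 1 fewer in each, and motifs against promoter peaks 1 and 2.

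In the optimal list, signal against intronic peaks was 1.73, presence in both replicates' lists 1.52, any noncoding gene 0.898 and chromosome II 0.976, with 0 chromosomes past the threshold, 37 words more, 49 fewer and 3 motifs against promoter peaks. At an IDR of 0.001 there were 65 members (10.6%), and values against intronic peaks were 0.690 for both lists, 0.797 for noncoding genes and 1.71 for repeated sequence. Against promoter peaks signal was 0.887 and both lists 0.647. Antisense genes were at 0, chromosome II at 0.754, the middle of chromosomes at 0.938, divergent gaps at 0.773 and 3′ ends at 1.43, with 0 chromosomes, 1 motif more and 1 fewer, 12 words more and 5 fewer, and 1 motif against promoter peaks. Promoter windows of 2000 and 500 bp gave a share of 11.8%, signal against intronic peaks 1.69, both lists against promoter peaks 0.729, antisense and snRNA genes 0, chromosome II 0.985, 3′ ends 1.41, 8 words more, 7 fewer and 1 motif against promoter peaks. With tRNA and snoRNA genes kept 500 bp away, signal against intronic peaks was 1.52.

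Another 3 settings were chosen after seeing the data. The ranked list at an IDR of 0.01 gave a share of 21.0%, signal of 2.30 against intronic and 1.06 against promoter peaks, both lists 0.932 against intronic peaks, lincRNA genes 0.992, rRNA genes 4.51, any noncoding gene 0.848, chromosome II 0.816, the middle of chromosomes 0.929, divergent gaps 0.966, tandem gaps 0.861, 3′ ends 1.08 and 2 motifs against promoter peaks. With 1 member per sequence group, 157 members (10.8%) remained, with noncoding genes 1.89 and repeated sequence 1.10 against intronic peaks, antisense genes 0, chromosome IV 0.859, the middle of chromosomes 0.874, 0 chromosomes, 0 motifs either way, 2 words more and 3 fewer. Without the 4 families the share was 12.9%, noncoding genes 1.67 and repeated sequence 1.45 against intronic peaks, chromosome IV 0.876 and the middle of chromosomes 0.857, with 0 chromosomes, 0 motifs and 0 words either way, TGGCNNAGT at 0 by construction, and 1 motif against each class. In this setting and the one before it only members were thinned, and the other classes were kept whole. The 12 intronic and 31 promoter peaks with TGGCNNAGT thus stayed, so a difference in that motif would follow from the filter.

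Of the smaller choices, antisense genes were at 0 when the summit had to lie inside the gene, and any noncoding gene was at 0.989 within 500 bp. Windows of 25 bp gave 1 motif more and 0 fewer, windows of 100 bp 1 motif against promoter peaks, flanks at 1000 bp 1 motif more, and leaving out members near noncoding genes 1 motif fewer. Repeated sequence against intronic peaks was 1.49 with a shorter central sequence of 36 bp and 6.75 with a longer one, without passing. No paired analysis was possible because there is 1 group. Read depth was not analysed here, so what it limits is unknown, and copies in repeats limit where a peak can be placed.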
